A study of Mus musculus with 18 samples.

Results

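Transcript levels of 10 genes around ataxin-1 were followed in the mouse cerebellum. They are Atxn1, which encodes the mouse ataxin-1 protein, its paralog Atxn1l, the repressor gene Cic (Capicua), Rbm17 and Ywhae, whose products bind ataxin-1, and 5 genes known as targets of Capicua, namely Etv1, Etv4, Etv5, Spry4 and Dusp6. The genes were chosen by name for these roles, and all 10 of them, of 22783 genes measured, passed the filter on low values that left 13487 genes for testing. RNA was sequenced from dissected cerebella of FVB mice of 2 genotypes, Cck-/- and ATXN1[30Q]D776/Cck-/-, at postnatal week 5, 12 or 28, with 3 libraries in each of the 6 groups. Both genotypes are labelled as lacking Cck, the gene of the peptide cholecystokinin, so by the labels no group has an intact Cck and none is wild type. ATXN1[30Q]D776 is a human ataxin-1 transgene with an unexpanded glutamine tract and an aspartate in place of a phosphorylated serine, and in the published line it is driven in Purkinje cells by regulatory sequence of Pcp2. Its libraries are called transgenic here. The series concerns cholecystokinin receptor signalling and Purkinje cell disease in such mice, and the comparison of genotypes asks how the added transgene goes with each transcript at each age.

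Ataxin-1 is a nuclear protein that carries a glutamine tract, and expansion of that tract causes spinocerebellar ataxia type 1. It and ATXN1L form a complex with Capicua, an HMG-box protein that binds TGAATG-type octamers near its target genes and represses them. Signalling through the kinases RAF, MEK and ERK relieves that repression. Many Capicua targets are ETS transcription factors of the PEA3 group (Etv1, Etv4 and Etv5) or brakes on the same kinases, such as the Sprouty proteins and the ERK phosphatase DUSP6. The 14-3-3 protein encoded by Ywhae binds ataxin-1 when the serine replaced in the transgene is phosphorylated, and the splicing factor RBM17 binds ataxin-1 in a second complex.

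Promoter sequence is shown for Etv5 and Dusp6, the Capicua targets in which the core of the Capicua motif, TGAATG, was found upstream of a start. The letters searched were TGAATG and its reverse complement CATTCA, on both strands of the 250 bases upstream of each RefSeq start on GRCm38.p6. Windows were at hand for 7 of the 10 genes. These had 10 windows, some genes having 2 starts. The core was present in 3 of the 10, of Etv5, Dusp6 and Atxn1l, and in 10.9% of 32851 windows of the same length. Of the other Capicua targets, Etv1 had 2 windows, both without the core, and Etv4 and Spry4 had no window. The Etv5 window upstream of its second start, which lies inside the annotated gene and overlaps no GENCODE M21 exon, held 3 copies, which 0.131% of all windows matched or exceeded, and the Dusp6 window held 1. The other Etv5 window, at the annotated start of the gene (chr16:22439571-22439820), held none. The longer forms TGAATGAA and TGAATGGA were in none of the 7 genes' windows and in 1.08% and 1.01% of all windows. A match describes the letters in the window and is no evidence of binding. In the lines below the capitals mark the core on either strand, with the first at chr16:22438369-22438618 (minus strand) and the second at chr10:99262981-99263230 (plus strand), both read 5′ to 3′.
Etv5: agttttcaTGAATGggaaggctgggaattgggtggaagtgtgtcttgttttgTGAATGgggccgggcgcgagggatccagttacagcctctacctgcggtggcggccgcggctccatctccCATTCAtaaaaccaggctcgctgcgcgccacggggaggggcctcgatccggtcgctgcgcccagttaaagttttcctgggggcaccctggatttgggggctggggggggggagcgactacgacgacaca
Dusp6: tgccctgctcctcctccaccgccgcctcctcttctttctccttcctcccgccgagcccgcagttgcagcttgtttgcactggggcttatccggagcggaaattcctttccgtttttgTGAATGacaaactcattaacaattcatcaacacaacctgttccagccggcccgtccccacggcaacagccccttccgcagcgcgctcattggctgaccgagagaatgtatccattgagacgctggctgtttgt

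Values are FPKM, fragment numbers scaled to transcript length and library size, and were normalized across libraries by a method not stated. Differences are given on the log2(FPKM + 1) scale, which understates the change of low genes, with limma's standard error (SE) and a two-sided p adjusted over all 13487 genes. A gene was called when that p was under 0.05. Nothing in the labels ties a library to its own animal, so p-values measure only the spread between these libraries, which may be technical. Correlations of log2 values between libraries of a group lay between 0.984 and 0.996. Absolute read depth is unknown, and week 28 libraries listed fewer genes at 0 FPKM (4123 to 4425) than the 12 libraries of weeks 5 and 12 (4561 to 4959). Age and the source of that difference cannot be told apart. Cck itself was above 0 in every library and was 98.1 ± 15.6 FPKM in the transgenic week 5 group against 20.8 ± 4.51 in the Cck-/- week 5 group (mean ± SD, n = 3 each). Values per gene do not show which exons were read, and both groups are named as labelled. Of the transgenic libraries, 3 (week 5 replicates 1 and 2, week 28 replicate 3) were low in choroid plexus markers, with mean log2 levels of 1.08 to 1.50 against at least 3.53 elsewhere. Another set of 3 (week 5 replicate 1, week 12 replicate 2, week 28 replicate 1), of which the first is in both sets, held both Xist and the Y-linked Ddx3y. Ddx3y averaged 18.6 and 17.8 FPKM in Cck-/- libraries at weeks 5 and 12 and 8.12 to 9.57 FPKM in the other groups (SD 13.5 to 16.6). The mix of sexes may thus differ with genotype at weeks 5 and 12 and with age in Cck-/-. Xist as a covariate is among the alternatives below. Purkinje cell markers, which identify cerebellar cortex, were abundant, with summed levels of 3319.95 to 3755.74 FPKM over 9 genes in the Cck-/- libraries and none at 0. In bulk tissue, fewer cells of a type and less RNA per cell cannot be told apart.

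Ywhae was the most abundant of the 10 transcripts, at 326 FPKM averaged over the 18 libraries, followed by Etv1 at 101 FPKM. Rbm17 (31.9 FPKM) and Cic (30.9 FPKM) stood next, and their ranges over libraries overlapped. Etv5 followed at 23.5 FPKM. Atxn1l (9.54 FPKM), Dusp6 (8.39 FPKM), Atxn1 (5.71 FPKM), Etv4 (5.11 FPKM) and Spry4 (4.71 FPKM) were the lowest, and each overlapped its neighbour in this order. Spread over the 6 groups did not follow this order. The highest group mean was 3.02 times the lowest for Spry4, 2.41 times for Etv4 and 2.07 times for Dusp6. The ratio was 1.46 for Etv5, 1.34 for Etv1 and at most 1.23 for the other 5 genes. The plot of levels by library shows these levels and their spread.

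**Figure D1:**
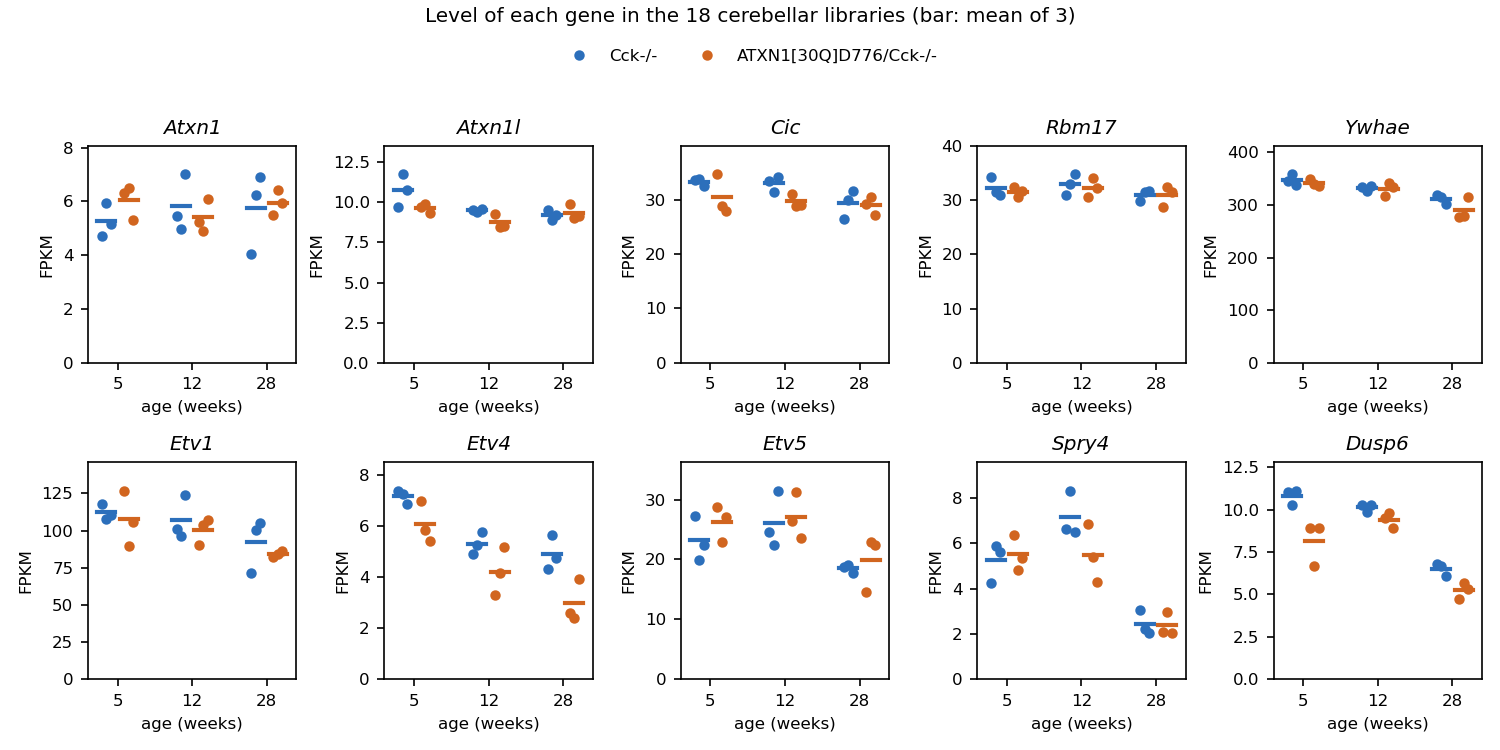
FPKM (vertical axes, from 0) of each of the 10 genes in the 18 libraries against age in weeks, with Cck-/- libraries in blue and ATXN1[30Q]D776/Cck-/- libraries in orange. Points are libraries and bars are means of 3. Spry4 and Dusp6 stood lowest at week 28 in both genotypes, and Rbm17 stayed between 28.9 and 34.8 FPKM throughout.

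The first question was whether transcripts of mouse Atxn1, its paralog and its partners differed with the transgene. None of Atxn1, Atxn1l, Cic, Rbm17 and Ywhae was called between genotypes at any age. Mouse Atxn1 read 4.71, 5.96 and 5.17 FPKM in the Cck-/- libraries at week 5 (replicates 1 to 3) and 6.32, 6.50 and 5.33 FPKM in the transgenic ones. It read 5.45, 4.98 and 7.01 FPKM against 5.23, 4.91 and 6.08 FPKM at week 12, and 4.05, 6.26 and 6.92 FPKM against 5.50, 6.42 and 5.96 FPKM at week 28. The genotypes overlapped at every age, and the week 5 difference was 0.17 with a 95% interval from -0.15 to 0.48 (adjusted p = 0.556). These are the values listed for the mouse gene after alignment to mm10. Whether reads of the human transgene were counted in them was not tested. The transgene's own RNA was not analysed here, so these values do not check the transgene label. Exons of Atxn1 (chr13:45549756-45964991, minus strand, mm10) also overlap those of Gmpr on the other strand.

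Atxn1l, which can stand in for ataxin-1 in the Capicua complex, lay in a narrow band. Its values were 9.72, 11.8 and 10.8 FPKM in Cck-/- and 9.74, 9.89 and 9.37 FPKM in transgenic libraries at week 5, and the ranges overlapped. At week 12 they were 9.56, 9.40 and 9.59 FPKM against 9.26, 8.48 and 8.55 FPKM, with every transgenic library below every Cck-/- library. At week 28 they were 9.53, 8.91 and 9.20 FPKM against 9.87, 9.02 and 9.17 FPKM. The differences were -0.14 (adjusted p = 0.167), -0.11 (adjusted p = 0.487) and 0.019 (adjusted p = 0.870), none of them called.

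Cic, the repressor of the set, read 33.7, 33.9 and 32.7 FPKM in Cck-/- libraries at week 5 and 34.8, 28.8 and 28.0 FPKM in transgenic ones. At week 12 it read 33.6, 31.5 and 34.2 FPKM against 31.1, 29.0 and 29.2 FPKM, again with no overlap. At week 28 the genotypes ran together, at 26.5, 30.0 and 31.7 FPKM against 29.4, 30.6 and 27.2 FPKM. The week 12 difference was -0.15 with a 95% interval from -0.31 to 0.012 (adjusted p = 0.458), so a loss of that size was not called. Rbm17 varied least of the 10, between 28.9 and 34.8 FPKM over all 18 libraries. Its genotype difference at week 28 was -0.0041 with an interval from -0.12 to 0.12.

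The Capicua targets are the genes that repression by an ataxin-1 complex would touch. Dusp6 was lower in transgenic cerebellum at week 5 and Etv4 was lower at week 28, while Etv1, Etv5 and Spry4 were called at no age. Of the 10 genes, 1 was called at week 5, where 7.67% of all tested genes were called and 4.37% were called lower. None was called at week 12 by limma, with 0 at an unadjusted p under 0.05 and 1.36% of all genes called. At week 28, 1 was called against 10.7% of all genes, with 6.13% of all genes called lower. A count of 1 in 10 is thus near the share over all genes at week 5 and week 28. That share itself moves: with 1 library left out, 450 to 800 genes in place of 1035 were called at week 5, and 616 to 1975 in place of 1439 at week 28. The median difference over the 10 genes was -0.050 at week 5, -0.093 at week 12 and -0.020 at week 28, where the medians of all tested genes were within 0.0046 of 0.

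Dusp6 (chr10:99263231-99267489, plus strand, mm10) encodes a phosphatase that removes the activating phosphates from ERK. It read 11.03, 10.3 and 11.1 FPKM in Cck-/- libraries at week 5 and 8.92, 6.68 and 8.92 FPKM in transgenic ones. It read 10.3, 9.89 and 10.3 FPKM against 9.53, 9.83 and 8.90 FPKM at week 12, and 6.78, 6.70 and 6.09 FPKM against 4.72, 5.66 and 5.32 FPKM at week 28. At each age every transgenic library lay below every Cck-/- library. The week 5 means were 8.17 ± 1.29 against 10.8 ± 0.450 FPKM (SD, n = 3 each), a difference of -0.37, SE 0.085 (95% interval -0.56 to -0.19, adjusted p = 0.0151). The difference was -0.099 at week 12 (adjusted p = 0.728). Week 28 gave -0.27, SE 0.085 (adjusted p = 0.0530), just outside the call. The week 5 call was lost without Cck-/- replicate 1 or 3 (adjusted p = 0.0567 and 0.0638) and without the transgenic week 5 replicates 1 and 2 together, the libraries low in choroid plexus markers (-0.25, adjusted p = 0.198, with 1 transgenic library left at that age and assumed to vary like the other groups). Without the transgenic replicate 2 alone it was also -0.25 (adjusted p = 0.0510).

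Markers of other cell types differed at week 5 as well. Those of myelinating oligodendrocytes were called lower in transgenic libraries for 4 of 7 genes (summed 3865.76 to 3976.38 FPKM against 4817.62 to 5828.07), and Purkinje markers for 3 of 9 (2666.71 to 3035.85 against 3458.43 to 3755.74 FPKM). Inhibitory interneuron markers were called higher for 4 of 7 genes (140.3 to 159.2 against 112.8 to 126.9 FPKM). Bergmann glia and astrocyte markers were called lower for 2 of 7, and endothelial markers higher for 1 of 5 and lower for 1. None of these markers was at 0, and their part in the Dusp6 difference was not tested. Choroid plexus markers ran from 19.9 to 2756.86 FPKM within the transgenic week 5 group.

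Etv4 (chr11:101769742-101785310, minus strand, mm10), the scarcest of the PEA3 factors here, had a lower mean in transgenic libraries at every age and was called at week 28. It read 7.39, 7.27 and 6.86 FPKM in Cck-/- libraries at week 5 and 7.00, 5.86 and 5.42 FPKM in transgenic ones, which overlapped. It read 4.93, 5.27 and 5.76 FPKM against 3.30, 4.15 and 5.19 FPKM at week 12, and 4.32, 5.67 and 4.74 FPKM against 2.61, 2.40 and 3.92 FPKM at week 28, where the groups were apart. The week 28 means were 4.91 ± 0.689 and 2.97 ± 0.825 FPKM (SD, n = 3 each), and the difference was -0.59, SE 0.14 (95% interval -0.89 to -0.28, adjusted p = 0.0163). Differences of -0.21 (adjusted p = 0.425) at week 5 and -0.29 (adjusted p = 0.437) at week 12 were not called. The change of the effect with age was not called, at -0.38 for week 28 minus week 5 (95% interval -0.81 to 0.053, adjusted p = 0.326). The week 28 call was lost without Cck-/- replicate 2, transgenic replicate 1 or transgenic replicate 2 of that age (adjusted p = 0.0830, 0.0790 and 0.0992), and without the libraries holding both Xist and Ddx3y (adjusted p = 0.0988).

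At week 28 all 9 Purkinje markers were lower in transgenic libraries, with a median difference of -1.40 and summed levels of 1082.78 to 2112.67 FPKM against 3319.95 to 3597.03 FPKM. None was at 0. Markers of Bergmann glia and astrocytes were called lower for 4 of 7 genes and higher for 2, and 3 of 7 microglial markers were higher. The part of these cell types in the Etv4 difference was not tested.

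The other targets overlapped between genotypes at every age. Etv5 read 27.3, 19.9 and 22.5 FPKM in Cck-/- against 28.8, 23.0 and 27.0 FPKM in transgenic libraries at week 5, 24.5, 22.4 and 31.5 against 26.3, 31.2 and 23.6 FPKM at week 12, and 18.8, 19.0 and 17.7 against 14.5, 22.9 and 22.4 FPKM at week 28. Its differences were positive at all 3 ages, at most 0.18, and none was called. Etv1, which unlike Etv4 is abundant in the cerebellum, averaged 112 ± 5.22, 107 ± 14.7 and 92.1 ± 18.3 FPKM at weeks 5, 12 and 28 in Cck-/- and 107 ± 18.6, 100.4 ± 9.10 and 84.0 ± 2.07 FPKM in transgenic libraries (SD, n = 3 each). Within the PEA3 group Etv4 alone was called, and the estimates for Etv5 were on the other side of 0, as the plot of genotype differences shows.

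**Figure D2:**
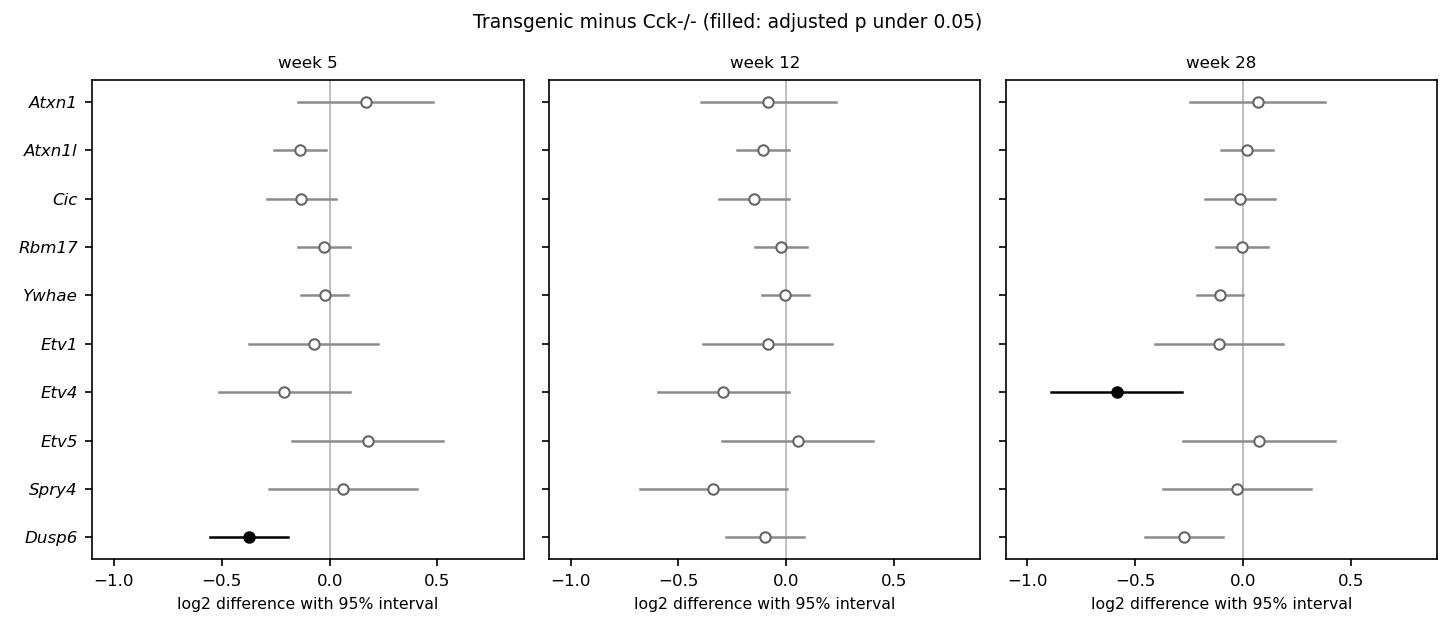
Transgenic minus Cck-/- difference in log2(FPKM + 1) (horizontal axes) for the 10 genes at week 5, 12 and 28. Circles are limma estimates from 3 libraries a group, lines are 95% intervals, and filled circles have an adjusted p under 0.05. Dusp6 at week 5 (-0.37) and Etv4 at week 28 (-0.59) are filled.

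The age comparisons ask how the same genes changed within a genotype. From week 12 to week 28, Spry4 and Dusp6 fell in both genotypes and Ywhae fell in the transgenic libraries. In Cck-/- libraries 2 of the 10 genes were called, both lower, where 9.65% of all genes were called and 5.62% were called lower. In transgenic libraries 3 were called, all lower, where 23.8% of all genes were called and 13.7% were called lower. All 10 estimates in Cck-/- and 8 of 10 in transgenic libraries were below 0, with medians of -0.13 and -0.22. The medians of all tested genes were -0.00079 and -0.0031, and the share of all genes below 0 was not computed. Some of the 10 were near 0, such as Atxn1 (-0.031) and Atxn1l (-0.042) in Cck-/-. The 10 estimates come from the same libraries and are not independent, so the count of signs is no test of the set. From week 5 to week 12 limma called none of the 10 in either genotype, where 11.8% (Cck-/-) and 1.19% (transgenic) of all genes were called. An unadjusted p under 0.05 was reached by 3 of the 10 in each genotype, a looser threshold than that of these shares. In Cck-/- libraries 20.8% of all tested genes had a smaller p than the weakest of the 3, Spry4. In transgenic libraries 11.8% had a smaller p than the weakest of the 3, Atxn1l.

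Spry4 encodes a Sprouty protein that restrains receptor tyrosine kinase signalling to ERK. In Cck-/- libraries it read 4.27, 5.88 and 5.61 FPKM at week 5, 6.65, 8.33 and 6.51 FPKM at week 12, and 3.06, 2.22 and 2.03 FPKM at week 28. In transgenic libraries it read 6.35, 4.82 and 5.35 FPKM, then 6.85, 5.39 and 4.28 FPKM, then 2.10, 2.96 and 2.05 FPKM. Every week 28 library lay below every younger library of either genotype. The mean fell from 7.16 ± 1.01 to 2.44 ± 0.547 FPKM in Cck-/- (-1.25, SE 0.16, 95% interval -1.59 to -0.91, adjusted p = 0.000340). It fell from 5.51 ± 1.29 to 2.37 ± 0.512 FPKM in transgenic libraries (-0.94, SE 0.16, 95% interval -1.28 to -0.60, adjusted p = 0.00128). The difference between these falls was 0.31 (95% interval -0.17 to 0.80, adjusted p = 0.625) and was not called. Its interval includes both a smaller and a larger fall in transgenic cerebellum. Week 5 and week 12 were not called apart in Cck-/- (0.39, adjusted p = 0.141). The gene lies on chromosome 18 (38586265 to 38601268, minus strand, mm10).

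Dusp6 fell alongside, from 10.2 ± 0.225 to 6.52 ± 0.376 FPKM in Cck-/- libraries (-0.57, SE 0.085, 95% interval -0.75 to -0.39, adjusted p = 0.00113). In transgenic libraries it fell from 9.42 ± 0.473 to 5.23 ± 0.478 FPKM (-0.74, SE 0.085, 95% interval -0.92 to -0.56, adjusted p = 0.000113). The difference between these falls was -0.17 (95% interval -0.43 to 0.082, adjusted p = 0.614). The Spry4 and Dusp6 falls were called in every alternative in which these genes were tested, leaving out each library included.

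Etv5 had its lowest values at week 28 in both genotypes, with each group apart from week 12, but its differences of -0.46 (Cck-/-, adjusted p = 0.0899) and -0.44 (transgenic, adjusted p = 0.0642) were not called. Without the libraries holding both Xist and Ddx3y the transgenic difference was -0.13 (adjusted p = 0.623). Etv4 differed earlier in life, by -0.37 (Cck-/-, adjusted p = 0.107) and -0.45 (transgenic, adjusted p = 0.161) from week 5 to week 12, with no overlap in either genotype and no call. Its week 12 to 28 difference was -0.39 in transgenic libraries (adjusted p = 0.0562) and -0.10 in Cck-/- (adjusted p = 0.698).

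Ywhae (chr11:75732887-75765841, plus strand, mm10) encodes 14-3-3 epsilon, a phosphoserine-binding adaptor. In Cck-/- libraries it read 345, 359 and 338 FPKM at week 5, 334, 326 and 337 FPKM at week 12, and 318, 315 and 302 FPKM at week 28. In transgenic libraries it read 349, 340 and 336 FPKM, then 317, 342 and 334 FPKM, then 277, 279 and 314 FPKM. The transgenic mean fell by 12.4% from week 12 to week 28 (-0.19, SE 0.051, adjusted p = 0.0146), and all 9 Purkinje markers fell in the same comparison, whose part was not tested. The call was lost without transgenic week 12 replicate 2, week 28 replicate 1 or week 28 replicate 2 (adjusted p = 0.0589, 0.0733 and 0.0689), and without the libraries holding both Xist and Ddx3y (adjusted p = 0.197). In Cck-/- the estimate was -0.091 (adjusted p = 0.274), and the transgenic change minus the Cck-/- change was -0.10 (95% interval -0.25 to 0.052, adjusted p = 0.621).

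**Figure D3:**
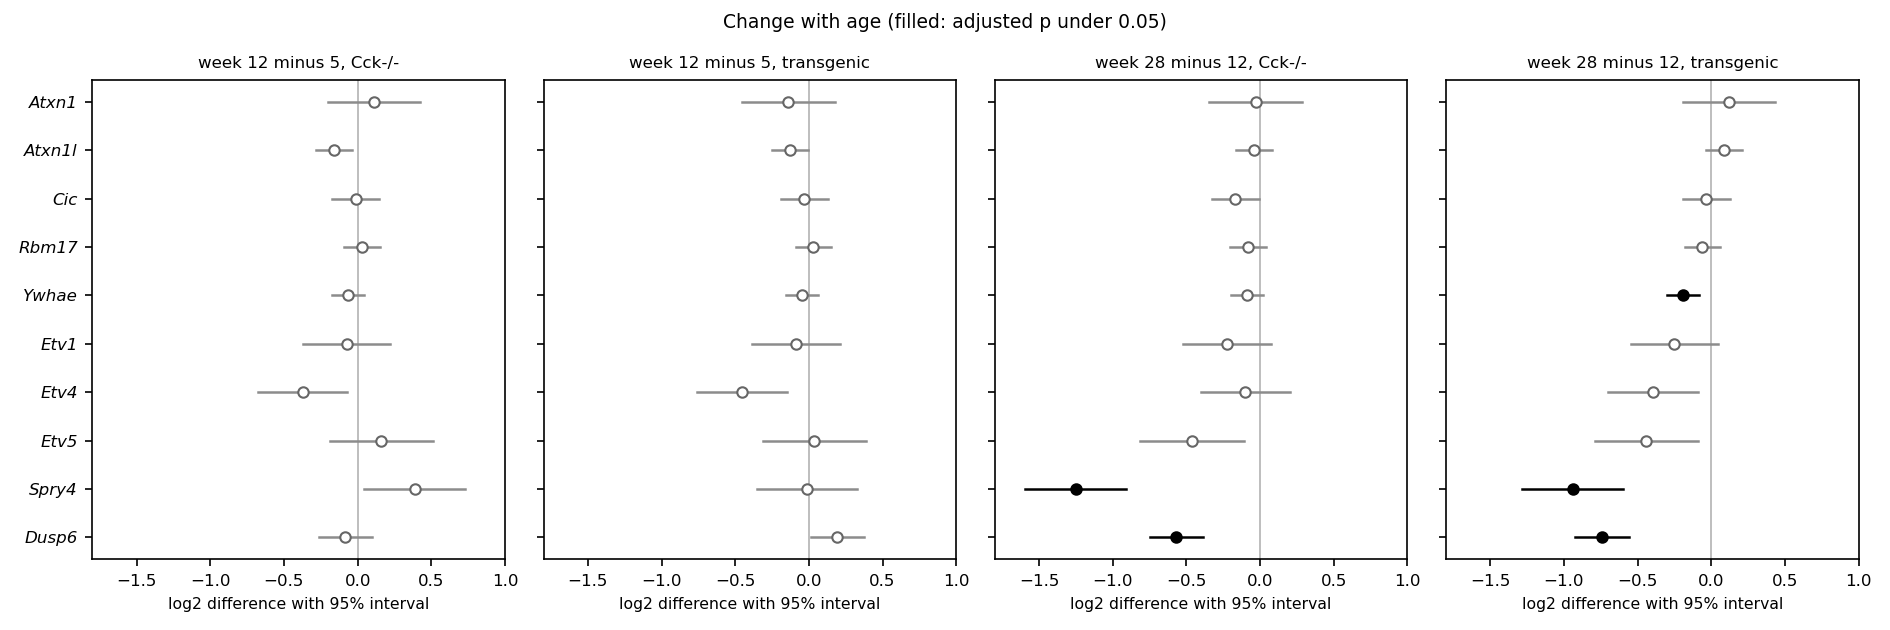
Change in log2(FPKM + 1) (horizontal axes) from week 5 to 12 and from week 12 to 28 for the 10 genes in each genotype. Circles are limma estimates from 3 libraries a group, lines are 95% intervals, and filled circles have an adjusted p under 0.05. Spry4 (-1.25 and -0.94) and Dusp6 (-0.57 and -0.74) are filled in both week 12 to 28 panels, and Ywhae in the transgenic one.

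No gene of the set was called for a change of the genotype effect with age. Limma gave 0 of 10 for week 28 minus week 5 and 0 of 10 for week 28 minus week 12, with 0 at an unadjusted p under 0.05 in each, where 3.65% and 0% of all genes were called. For Dusp6 the effect at week 28 minus that at week 5 was 0.10 (95% interval -0.16 to 0.36), so the week 5 and week 28 differences were not told apart. The genotype comparisons and the age comparisons share libraries and are not independent of each other.

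Among other brakes on ERK signalling and reported Capicua targets, Dusp4, Spred2 and Dusp5 fell from week 12 to week 28 in both genotypes. Of 16 listed genes 12 were tested, and Spry3, Fosl1, Maff and Mmp9 were too low. In Cck-/- libraries 5 of 12 fell, none rose and 7 were not called, against 5.62% of all genes called lower, with a list median of -0.23. In transgenic libraries 3 of 12 fell, none rose and 9 were not called, with a list median of -0.20. There 13.7% of all genes were called lower and 23.8% in either direction, so that count is near the share over all genes. The medians of all tested genes were -0.00079 and -0.0031. Dusp4, another phosphatase of ERK-type kinases, fell from 4.93 ± 0.126 to 2.00 ± 0.277 FPKM in Cck-/- (-0.99, SE 0.11, adjusted p = 0.000108) and from 3.45 ± 0.354 to 1.45 ± 0.246 FPKM in transgenic libraries (-0.87, adjusted p = 0.000258). From week 5 to week 12 it had risen in Cck-/- libraries, from 3.07 ± 0.128 FPKM (0.54, adjusted p = 0.00574), the 1 call of the list in that step. Spred2, a Sprouty-related inhibitor of RAF activation, fell from 36.1 ± 1.22 to 19.2 ± 0.348 FPKM and from 32.4 ± 4.80 to 23.0 ± 3.52 FPKM. Dusp5, a nuclear ERK phosphatase, fell from 47.6 ± 12.6 to 27.3 ± 6.54 FPKM and from 46.0 ± 4.90 to 25.5 ± 4.23 FPKM (SD, n = 3 throughout). Spred1 (-0.33) and Gpr3 (-0.89) fell in Cck-/- libraries, and their estimates in transgenic libraries were -0.17 and -0.45 (adjusted p = 0.107 and 0.0546). The difference between genotypes in the change from week 12 to week 28 was called for none of the 12, where 0 of 13487 tested genes were called. In Cck-/- the Spred1 call was lost without week 12 replicate 1 or 3 or week 28 replicate 3 (adjusted p up to 0.0629), and the Dusp5 call without week 12 replicate 3 or week 28 replicate 1 (0.0858 and 0.0592). Without the Cck-/- week 12 replicate 3, 3 of 12 were called, and without the transgenic week 28 replicate 3, 5 of 12 were called in transgenic libraries. Without the libraries holding both Xist and Ddx3y the counts were 5 and 2, and without those low in choroid plexus markers 5 and 4. Granule neuron markers were called lower for 2 of 7 genes in Cck-/- (summed 1634.87 to 1965.85 FPKM at week 12 and 1213.26 to 1702.31 at week 28) and for 3 of 7 in transgenic libraries (1637.73 to 1964.63 and 1452.31 to 1554.18). Purkinje markers in the same step were called lower for 0 of 9 genes in Cck-/- (3547.9 to 3694.91 and 3319.95 to 3597.03 FPKM) and for 9 of 9 in transgenic libraries (2578.55 to 2902.05 and 1082.78 to 2112.67 FPKM). Microglial markers were called higher for 1 of 7 genes in Cck-/- (88.1 to 99.9 and 106.5 to 157.6 FPKM) and for 6 of 7 in transgenic libraries (103.6 to 153.2 and 158.7 to 232.7 FPKM). None of these markers was at 0, and their part in the falls of Spry4, Dusp6 and the listed genes was not tested.

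**Figure D4:**
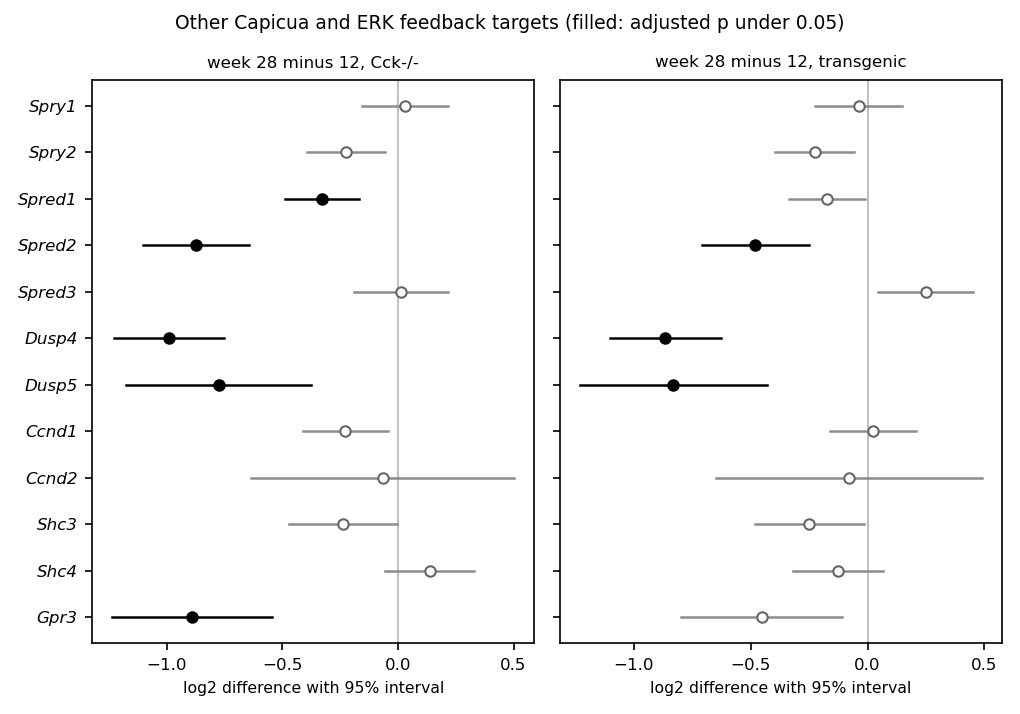
Change in log2(FPKM + 1) (horizontal axes) from week 12 to week 28 for the 12 tested genes of the list of other Capicua and ERK feedback targets, in Cck-/- (left) and transgenic libraries (right). Circles are limma estimates from 3 libraries a group, lines are 95% intervals, and filled circles have an adjusted p under 0.05. Dusp4, Dusp5 and Spred2 are filled in both panels.

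Between genotypes limma called 1 of the 12 tested genes of this list at week 5, none at week 12 and 1 at week 28. These counts are near the shares of all genes called (7.67%, 1.36% and 10.7%). The called gene was Ccnd1, the cyclin that carries cells from G1 into S phase. It was higher in transgenic libraries at week 5 (13.8 ± 1.19 against 10.6 ± 0.423 FPKM, adjusted p = 0.0228) and at week 28 (12.5 ± 1.19 against 8.79 ± 0.655 FPKM, adjusted p = 0.00274). The week 5 call was lost without any 1 library of that age except transgenic replicate 1 (adjusted p 0.0521 to 0.0922). The TGAATG core was present in the windows of 5 of the 9 listed genes that had one (Spred3, Dusp5, Maff, Shc4 and Gpr3). It was present in 10.9% of all windows, but that share is per window and the count is per gene, with 3 windows for Maff. The longer form TGAATGAA was in the Spred3 window and TGAATGGA in the Shc4 window, where 1.08% and 1.01% of all windows held them. Of the genes with a window, Dusp5 and Gpr3 (core present) and Spred1 and Spred2 (core absent) fell with age in Cck-/-. Spred3 and Shc4 (core present) and Spry1 and Spry2 (core absent) were not called, and Maff was not tested.

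Of ataxin-1's other partners and regulators, Ywhah and Rora were lower and Sp1 was higher in transgenic libraries at week 28. Of 28 listed genes 27 were tested, and limma called none at week 5 or week 12. The 3 of 27 called at week 28 are near the 10.7% of all genes called. Ywhah, which encodes 14-3-3 eta, was lower at 419 ± 87.1 against 709.95 ± 38.2 FPKM (-0.78, SE 0.10, adjusted p = 0.000196). Rora, a nuclear receptor needed by Purkinje cells and bound by ataxin-1, was lower at 35.6 ± 6.74 against 48.4 ± 2.83 FPKM (-0.45, adjusted p = 0.0111). Sp1, a zinc-finger activator, was higher at 10.2 ± 0.374 against 8.97 ± 0.249 FPKM (0.17, adjusted p = 0.0451). The list median was -0.0084. Purkinje markers were lower in the same comparison, and their part was not tested. The call of Rora was lost without transgenic week 28 replicate 2 (adjusted p = 0.0571), and that of Sp1 without Cck-/- replicate 2 or 3 or transgenic replicate 1 or 2 of week 28 (adjusted p 0.0841 to 0.183).

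In the kinase cascade upstream of Capicua, calls were near or below the share over all genes (7.67% at week 5, 1.36% at week 12 and 10.7% at week 28). Of 29 tested RAS-ERK genes, Nras was lower at week 5 (-0.26, adjusted p = 0.0135), none was called at week 12, and at week 28 Map2k1, which encodes MEK1, and the adaptor gene Grb2 were lower (-0.24 and -0.19) while the receptor gene Fgfr1 was higher (0.39). The Nras call was lost without Cck-/- or transgenic week 5 replicate 2 (adjusted p up to 0.0622) and the Map2k1 call without transgenic week 28 replicate 1 (0.0595). At the same age Grb2 was lost without Cck-/- replicate 2 or 3 or transgenic replicate 1 or 2 (up to 0.121), and Fgfr1 without Cck-/- replicate 1 or transgenic replicate 1 or 2 (up to 0.123). Of 14 other tested ETS genes none was called between genotypes at any age. Of 8 spliceosome partners of RBM17, only Sf3b1, a core component of the U2 particle, was called in those comparisons, higher at week 28 (84.2 ± 1.22 against 74.9 ± 3.64 FPKM, adjusted p = 0.0252). It was lost without replicate 1 or 2 of either genotype at that age (adjusted p 0.0641 to 0.109).

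For the 4 genes called in any comparison, the genes with the most similar pattern over the 6 group means were found by the smallest root mean square difference of centred log2 values. Rtn4rl1 (0.038) and Spata2l (0.078) were closest to Dusp6 among 761 genes of similar range. Rtn4rl1 averaged 24.8, 24.3 and 15.5 FPKM at weeks 5, 12 and 28 in Cck-/- and 19.1, 20.7 and 12.9 FPKM in transgenic libraries. Cpne9 (0.067) and Ifngr2 (0.081) were closest to Etv4 among 515 genes. Nr4a1 (0.053) was closest to Spry4 among 307 genes, and the second was a predicted gene. Chmp2b (0.0091) and Cct5 (0.013) were closest to Ywhae among 3479 genes, where the range to be matched was small. These are likenesses over 6 means of the same 18 libraries.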

How the data were processed

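Cerebellar RNA was profiled in 18 TruSeq libraries, per the labels. The deposited values are FPKM per gene symbol, made by the authors with Cufflinks 2.2.1 after TopHat2 2.0.11 on mm10, per the submitters' processing notes, and normalized across libraries. For the annotation and the normalization method, nothing is stated in the sources used here. Another 54 columns of per-library values (bounds and status) were not used. Since depth is unknown, no counting intervals were computed, and 3 libraries a group limit precision. Log2(FPKM + 1) was fitted for genes with at least 1 FPKM in at least 3 of 18 libraries, with limma 3.58.1 (R 4.3.3, with version 1.17.8 of data.table), a mean-variance trend and 6 group means. Tests were two-sided, with Benjamini-Hochberg adjustment within each of 9 comparisons, and were tested on simulated data. Motifs, likeness and figures used Python 3.11.15, pandas 2.3.3, numpy 2.4.6 and matplotlib 3.10.9.

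The 10 genes and the 5 pathway lists were chosen with earlier results of these data known, and they were described by counts and medians only. Named are all 10 genes, up to 4 called genes of each list in each genotype comparison, and the 2 most alike genes, among those with 0.8 to 1.25 times the range, for each of the 10 that was called. The feedback list was also followed from week 12 to 28, and its genes there were named after their values were seen. Predicted genes are counted only. Alternatives were median-ratio rescaling, a pseudocount of 0.1, a filter at a mean FPKM of 5 or none, library weights, replicate blocks, Xist and choroid plexus covariates, only the groups compared, and each library left out. After seeing the data, fits without the libraries whose choroid plexus markers were under 2 (log2), and without those with Xist of at least 1 and Ddx3y of at least 0.5 FPKM, were added. Promoter windows came from RefSeq on GRCm38.p6 and exons from GENCODE M21.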

Additional observations from a re-analysis of the deposited data

How the results depend on the processing

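Of the 10 genes, 1 was called at week 5, and the count was 2 with library weights and 0 with the choroid plexus covariate, without the libraries low in those markers or with only the groups compared. It ran from 0 to 1 with each library left out. At week 28 the count of 1 became 2 with median-ratio rescaling, a pseudocount of 0.1, a mean FPKM of at least 5 or the Xist covariate, 3 without the low choroid plexus libraries, 4 with library weights, and 0 with only the groups compared or without the libraries holding both Xist and Ddx3y. It ran from 0 to 2 with each library left out. Dusp6 at week 28 was among the calls of the 6 fits on all or selected libraries that gave 2 or more (adjusted p 0.00241 to 0.0495, limma), but in none of the 6 fits that left out 1 library of that age. Library weights gave 2 calls for week 28 minus week 5, 1 for week 28 minus week 12, 3 for week 5 to 12 in Cck-/- and 6 for week 12 to 28 in transgenic libraries. Week 5 to 12 in Cck-/- also gave 1 call with the choroid plexus covariate or only the groups compared, and 0 to 1 with each library left out. Week 12 to 28 in Cck-/- gave 1 with a mean FPKM of at least 5, where Spry4 was not tested, and in transgenic libraries 2 to 5 with each library left out. Feedback genes that fell with age in Cck-/- numbered 3 with a mean FPKM of at least 5, 8 with library weights, 2 with only the groups compared and 3 to 5 with each library left out. In transgenic libraries they numbered 5 with median-ratio rescaling, 7 with library weights and 3 to 5 with each library left out.

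With replicate numbers as a replicate block the counts were the same as without in all 9 comparisons, 1, 0 and 1 at weeks 5, 12 and 28, and of the named list genes Sp1 was not called (adjusted p = 0.0634). The labels do not say whether the numbers pair libraries. Same-numbered libraries of 2 groups correlated by -0.388 to 0.435 in their deviations (45 pairs, 15 over 0.1), and 3 of 18 libraries correlated best with their own number. With deviations taken within groups of 3 libraries, this check cannot exclude pairing. No result for the 10 genes with an unadjusted p under 0.05 was reversed in 320 refits, and of the 71 other results 8 of 1321 refits gave a call. The refits with another filter, with replicate blocks or with only the groups compared leave each estimate as it was, so they could not reverse it. The remaining refits reuse most of the same libraries, so the 320 are not independent checks. Over all genes, calls with 1 library left out ran from 59 to 210 at week 12 (183 with all), 116 to 1054 for week 28 minus week 5 (492), 0 to 149 for week 28 minus week 12 (0), 955 to 1214 and 68 to 127 for week 5 to 12 in Cck-/- (1595) and transgenic libraries (161), and 635 to 1300 and 1749 to 3538 for week 12 to 28 (1301 and 3216). Where 1 group was reduced to 1 library, that library was assumed to vary like the others.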

Other observations

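Nr4a1, the gene most like Spry4, belongs to the genes that neurons switch on with activity, so 18 such genes were listed after these values were seen, and 15 could be tested. From week 12 to week 28, 7 of 15 were called lower and none higher in each genotype, where 5.62% (Cck-/-) and 13.7% (transgenic) of all genes were called lower, with medians of -0.62 in Cck-/- and -0.39 in transgenic libraries. Nr4a3, an orphan nuclear receptor, averaged 8.12 ± 1.56 FPKM at week 12 and 1.14 ± 0.247 FPKM at week 28 in Cck-/-, and 5.98 ± 1.03 and 1.38 ± 0.836 FPKM in transgenic libraries (SD, n = 3 each). Bdnf, a neurotrophin, averaged 6.81 ± 0.709 and 3.00 ± 0.442 FPKM in Cck-/- and 4.81 ± 0.807 and 2.47 ± 0.421 FPKM in transgenic libraries. Nr4a1, Nr4a2, Egr4, Per1 and Homer1 were the other genes called lower in both genotypes. Egr1 and Arc, from the same list, were not called, with estimates above 0 in both genotypes. The list was chosen after the values were seen, and its fall shares the age comparison, and the libraries, with Spry4 and Dusp6.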
